A study of Mus musculus with 8 samples.

Results

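The genes described here store, carry, make and break down vitamin A (retinoids) in the liver. They are Lrat, Rbp4, Cyp26a1, Cyp26b1, Dhrs3, Rdh10, Rdh16, Bco1 and Bco2, 9 genes listed by name out of 22052 genes measured by RNA sequencing of whole liver. The list was made with earlier results of these data known. The RNA came from 8 male C57BL/6 mice aged 8 weeks, all injected with corn oil into the peritoneum. The 4 control mice carried floxed alleles of both Zfp36l1 and Zfp36l2 (genotype Zfp36l1fl/fl/Zfp36l2fl/fl) and no recombinase. The 4 double knockout mice (dKO) carried the same alleles with Alb-Cre, a Cre recombinase driven by the promoter of albumin, a hepatocyte gene. Alb-Cre acts in hepatocytes and, through their common fetal precursor, can also act in bile duct cells, and no Cre-only group was analysed here. The floxed genes encode ZFP36L1 and ZFP36L2, RNA-binding proteins. They attach to AU-rich stretches of the 3′ untranslated regions (UTRs) of many mRNAs and hasten their decay.

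As background, dietary retinol reaches the liver as retinyl esters. Stellate cells re-esterify it with lecithin retinol acyltransferase (LRAT) and keep it in lipid droplets. Hepatocytes release retinol bound to retinol binding protein 4 (RBP4), which travels in blood with transthyretin. Inside cells, retinol dehydrogenases such as RDH10 oxidise retinol to retinal, DHRS3 reduces retinal back, and aldehyde dehydrogenases make retinoic acid. Retinoic acid acts through the nuclear receptors RAR and RXR until CYP26 enzymes hydroxylate it. Carotenoids from plants enter the pathway through BCO1, which splits beta-carotene centrally into retinal, while BCO2 cleaves carotenoids off centre in mitochondria.

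The short sequences below are shown first because AU-rich elements are what the deleted proteins bind. The heptamer TATTTAT, the core of the AU-rich element in DNA letters, was searched on the sense strand in the annotated 3′ UTRs of the 9 genes (GENCODE M21, GRCm38). It was found in Lrat, Rbp4, Cyp26a1, Cyp26b1 and Bco1, where a match in any annotated 3′ UTR of the gene counted. In Bco1 it lay in a 3′ UTR of 381 nucleotides and was absent from the longest, of 460. Each site is printed 5′ to 3′ on the gene's strand, with the heptamer in capitals and its flanks in lower case.

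Lrat, heptamer at chr3:82896916-82896922, minus strand: tgtgtttaTATTTATagagcaca
Lrat, heptamer at chr3:82896324-82896330, minus strand: acagtagcTATTTATatttactt
Rbp4, heptamer at chr19:38116806-38116812, minus strand: ttcatctcTATTTATcttagaag
Cyp26a1, heptamer at chr19:37701448-37701454, plus strand: tagtatgaTATTTATgtgtctct
Cyp26b1, heptamer at chr6:84573527-84573533, minus strand: ctgtcccaTATTTATtcactgac
Bco1, heptamer at chr8:117133106-117133112, plus strand: tcatggttTATTTATcccagatg

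No heptamer was found in the annotated 3′ UTRs of Dhrs3, Rdh10, Rdh16 or Bco2, and the longer form TTATTTATT was found in none of the 9. The longest annotated 3′ UTR of each gene ranged from 185 nucleotides in Cyp26a1 and 243 in Rbp4 to 2853 in Cyp26b1 and 4394 in Lrat. The genes without the heptamer had 3′ UTRs of 319 (Bco2), 990 (Dhrs3), 2209 (Rdh16) and 2317 nucleotides (Rdh10). The absence of these letters says nothing about other ways in which an mRNA may be bound.

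The promoters, in 300-base windows around each transcription start, were searched because CYP26 genes are known targets of retinoic acid receptors. RefSeq (GRCm38.p6) held promoter windows for 8 of the 9 genes, and Rdh10 was not among them. The receptor element AGGTCA and its close forms, among them AGTTCA as well as the forms starting with G, namely GGGTCA and, with a further change, GGTTCA, were searched on both strands. Any pair of these was counted where it formed a direct repeat with 1, 2 or 5 bases between its elements, the spacings that receptor dimers with RXR are known to use. Cyp26a1 and Bco1 each held such a repeat, and the others held none. Both are printed on the strand opposite to the gene, with the repeated elements in capitals and the spacer in lower case.

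Cyp26a1, spacing 5, chr19:37697776-37697792: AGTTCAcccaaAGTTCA
Bco1, spacing 1, chr8:117095809-117095821: AGGTCAaAGGTCA

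Among 32851 RefSeq promoter windows of that length, 0.0974% held a repeat with spacing 5 and 0.222% a repeat with spacing 1. The 3 spacings together were found in 0.588% of windows. These are matches of letters, and binding to them was not measured.

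Values are given as normalised read counts, which are reads assigned to a gene divided by a factor for each library, in the order mouse 1 to 4. They are summarised as mean ± SD (n = 4 livers per group). Log2 changes are the mean of log2(value + 0.5) over dKO livers minus that over controls, with a standard error (SE). Each was tested with limma across all genes, 2-sided, with Benjamini-Hochberg adjustment, and a gene is said to have risen or fallen where the adjusted p was under 0.05. All 9 genes passed the filter on low values. Of these, 3 rose (Rbp4, Cyp26a1 and Bco1), 4 fell (Dhrs3, Rdh10, Rdh16 and Bco2), and Lrat and Cyp26b1 did neither. Change was common in these livers. Of 20055 genes tested, 38.2% passed the threshold, 21.2% as higher and 17.0% as lower in dKO. That share, used as a background below, takes in many scarce genes. When the filter was raised to at least 10 normalised read counts on average, 14132 genes remained, all 9 retinoid genes among them. There, 3850 were higher and 3409 lower in dKO, a larger share than 38.2%. The background for genes as abundant as these 9 is therefore higher than 38.2%. The 7 retinoid genes that passed had no overlap between the 4 control and the 4 dKO livers, as did 36.4% of all genes tested. The median change of the 9 genes was -0.23, beside 0.03 over all genes.

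**Figure D1:**
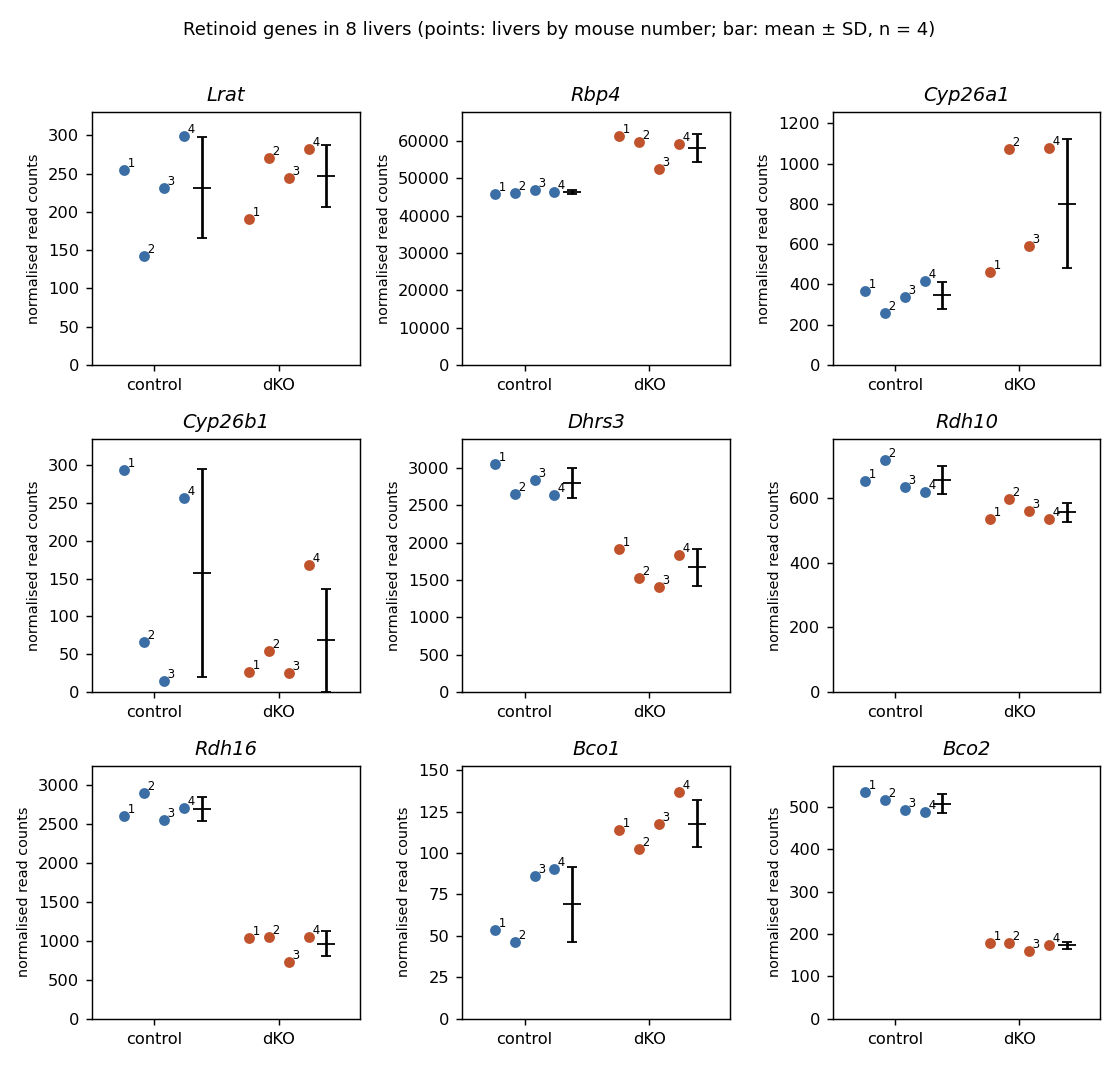
Normalised read counts (y axes, starting at 0) of the 9 retinoid genes in each control (blue) and dKO liver (orange), with mouse numbers beside the points and mean ± SD as black bars (n = 4). Rbp4, Cyp26a1 and Bco1 lie higher in every dKO liver than in any control, Dhrs3, Rdh10, Rdh16 and Bco2 lie lower, and Lrat and Cyp26b1 overlap.

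Both targeted genes were lower in dKO, as labelled. Zfp36l1 fell from 1370.2 ± 194 to 226 ± 27.6 (log2 change -2.60) and Zfp36l2 from 1584 ± 393 to 796 ± 94.4 (log2 change -0.96). Each library had between 15253827 and 19299556 reads in genes, and 3 reads correspond to 2.55 to 3.43 normalised read counts. Mitochondrially encoded genes took 4.06% to 4.74% of the summed values in controls and 3.09% to 3.70% in dKO. The first principal component took 74.5% of the variance and separated the groups. Control 4 stood apart from the other controls on it, at -43.3 against -76.5 to -67.7, with the dKO livers at 57.5 to 68.9. Without control 4 the same counts of retinoid genes passed, 3 higher and 4 lower. All 10 hepatocyte markers were read in every liver. Of these, 3 rose, 3 fell and 4 did neither, with a median change of -0.03. In whole liver, fewer cells of a type and less RNA per cell cannot be told apart, and markers of several other cell types were higher in dKO. The summed level of 10 myofibroblast markers was 2009 to 10184 in controls, highest in control 4, and 20714.5 to 27779.8 in dKO. That of 8 monocyte and recruited macrophage markers was 1273 to 5818 and 6701 to 10656, and that of 7 bile duct markers 636 to 1526 and 7832 to 12166. Spp1 made up most of the bile duct sum, with means of 705 in controls and 9498 in dKO. All 7 bile duct markers rose, with a median change of 1.58. Krt19 was among them at 38.9 and 99.0, although its groups overlapped. The part of these cell types in the changes of the retinoid genes was not tested.

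The 9 genes differed widely in abundance. Per kilobase of exon, the control level was highest for Rbp4, at 34433 ± 367 normalised read counts per kb. It was followed by Dhrs3 (956 ± 67.2), Rdh16 (433 ± 25.2) and Bco2 (239 ± 10.2). Cyp26a1 (174 ± 32.9) and Rdh10 (158 ± 10.4) came next and did not differ beyond their spread, nor did Cyp26b1 (29.4 ± 25.8) from Lrat (43.3 ± 12.3) above it or from Bco1 (27.1 ± 8.85) below it. In dKO livers the level per kb again ran from Rbp4 (43272 ± 2882) to Dhrs3 (571 ± 84.0). Cyp26a1 was the third there, at 403 ± 162 per kb, and its mean ± SD overlapped that of Dhrs3. Rdh16 (155 ± 25.3) and Rdh10 (134 ± 7.04) overlapped, Bco2 stood at 81.7 ± 3.97, Bco1 (46.3 ± 5.61) and Lrat (46.1 ± 7.55) overlapped, and Cyp26b1 was lowest at 12.8 ± 12.6. On this per-kb scale Bco2 and Rdh16 thus stood above Cyp26a1 in controls and below it in dKO.

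The gene of retinol storage, Lrat, showed no detectable difference. Lrat (chromosome 3, 82892579 to 82903973, minus strand, mm10) encodes the acyltransferase that esterifies retinol in stellate cells. It held 255, 143, 231 and 298 normalised read counts across the controls, against 191, 270.0, 244 and 282 across the dKO livers. The groups overlapped, and control 2 was the lowest liver. The means were 232 ± 65.6 and 247 ± 40.4. The log2 change was 0.13 (SE 0.20, 95% interval -0.32 to 0.57, limma adjusted p = 0.666), an interval that holds changes of moderate size in both directions. Without control 2 the log2 change was -0.091.

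Lrat was set beside 21 other stellate cell markers in the same livers. Of these, 11 rose, 6 fell and 4 did neither, with a median change of 0.40. The share called was 81.0%, beside 38.2% of all genes tested. The summed level of the 21 markers was 7861 to 11261 in controls and 11444 to 12394 in dKO. Dcn, a matrix proteoglycan, rose from 2197 ± 481 to 3275 ± 298 (log2 change 0.60). Rgs5, a regulator of G protein signalling found in pericytes, rose from 586 ± 29.2 to 1115 ± 204 (0.91). Ecm1, a matrix protein of quiescent stellate cells, fell from 1995 ± 469.5 to 837 ± 87.0 (-1.23). Reln stood at 803 ± 152 and 954 ± 213 (0.24, limma adjusted p = 0.273). Stellate markers therefore moved in both directions around an Lrat level that did not pass the test. The log2 level of Lrat minus the mean log2 level of the 21 markers was -0.06 ± 0.30 in controls and -0.13 ± 0.21 in dKO livers. The difference was -0.07 (SE 0.18, exact 2-sided permutation test, 70 ways to split the livers, p = 0.714). Its sign changed without control 1 (0.024), without control 4 (0.00065) and without dKO 1 (0.022).

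**Figure D2:**
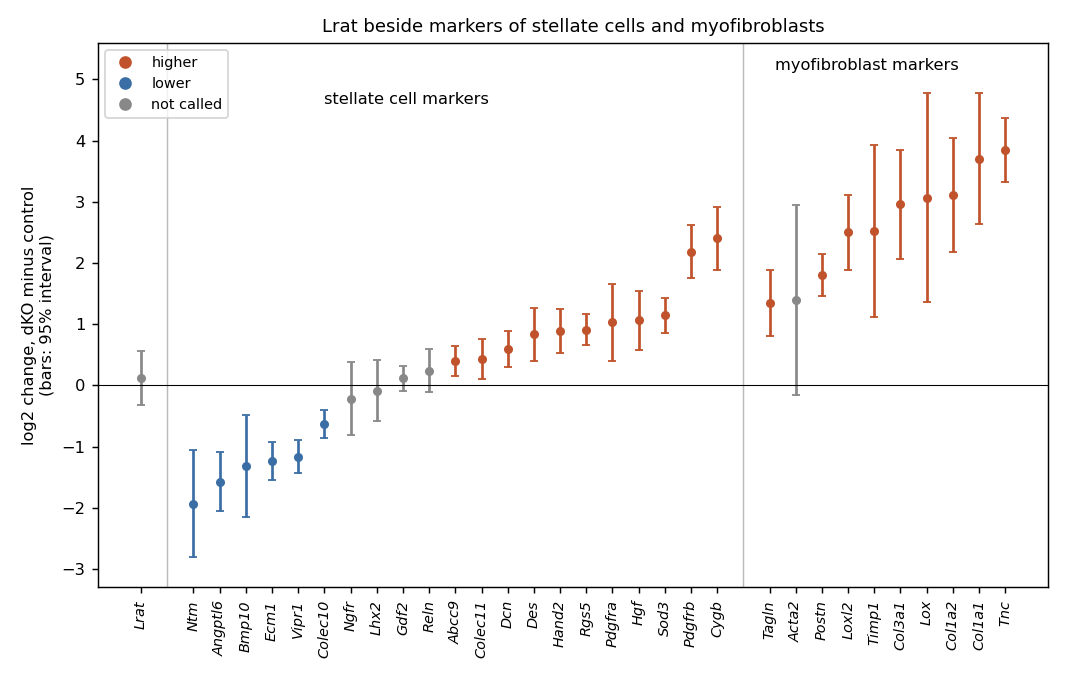
Log2 change, dKO minus control, of Lrat, 21 stellate cell markers and 10 myofibroblast markers (points, bars: 95% interval), coloured by whether limma's adjusted p was under 0.05. Lrat lies at 0.13, between stellate markers that fell, such as Ecm1 at -1.23, and those that rose, such as Rgs5 at 0.91, while 9 of the 10 myofibroblast markers rose.

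Rbp4, the gene of the secreted retinol carrier, rose modestly in dKO livers, while Ttr, the gene of its partner in blood, fell. Rbp4 (chromosome 19, 38116629 to 38125281, minus strand) held 45739.9, 46035, 46898 and 46303 in the controls, a narrow band. The dKO livers held 61225, 59709, 52472 and 59049.6, all above the controls, with dKO 3 nearest to them. Rbp4 rose from 46244 ± 493 to 58114 ± 3870.2, which is 126% of the control level (log2 change 0.33, SE 0.10, adjusted p = 0.0199 by limma). Without dKO 2 the adjusted p was 0.0534 at a log2 change of 0.31. With the mouse number as a block it was 0.0700. The exact permutation p of Rbp4 was 0.0286, the smallest that 4 against 4 livers allow.

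Ttr encodes transthyretin, which carries RBP4 and thyroid hormone in blood. It held 77553, 79266, 89299.6 and 91240.0 across the controls, against 45591, 53258, 46952 and 39449 across the dKO livers. Its groups did not overlap, and it fell to 46312 ± 5665 from 84339.7 ± 6929 (log2 change -0.87, SE 0.12, adjusted p = 0.000132 by limma). Within each liver, Rbp4 minus Ttr on the log2 scale was -0.76, -0.78, -0.93 and -0.98 in controls 1 to 4. It was 0.43, 0.16, 0.16 and 0.58 in dKO 1 to 4. The groups did not overlap. This is a difference of log2 read levels that are not corrected for gene length, so its sign does not rank the genes. The between-group difference was 1.20 (SE 0.12, exact permutation test, 2-sided, p = 0.0286, the smallest it allows). With Rbp4 higher and Ttr lower in every dKO liver, this separation and its p were already fixed. They add no evidence to the results of the single genes.

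**Figure D3:**
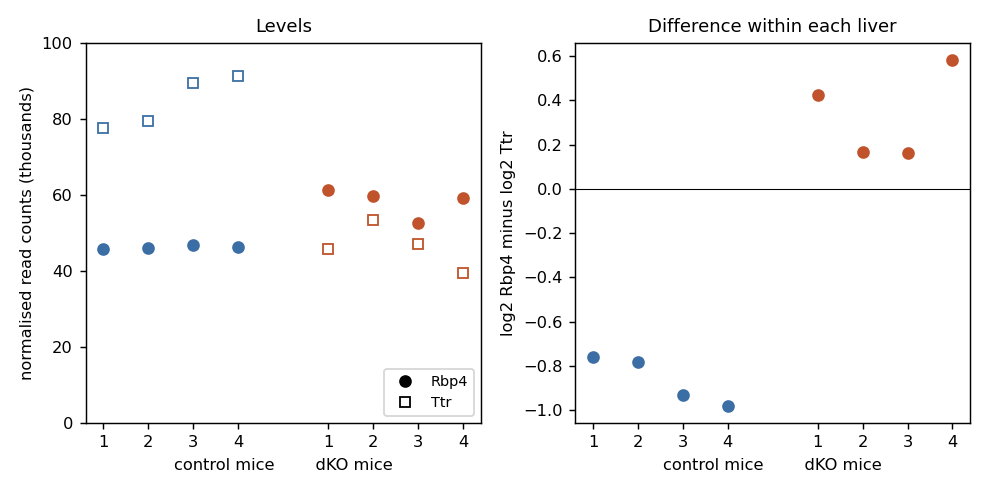
Left, normalised read counts of Rbp4 (filled circles) and Ttr (open squares) in each control (blue) and dKO liver (orange). Right, log2 Rbp4 minus log2 Ttr in the same livers, which lies between -0.98 and -0.76 in controls and between 0.16 and 0.58 in dKO.

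Among the other genes of retinoid binding and transport, 6 were tested and 33.3% called, beside 38.2% of all genes tested. Of the 6, 0 rose and 2, Ttr and Stra6l, fell (median change -0.51, or -0.21 without control 4). The rest had few reads in all controls and all dKO livers: Rbp7 1 and 4, Crabp2 4 and 1, Stra6 17 and 0, Rlbp1 0 and 9. The median includes these scarce genes, so it does not describe the transport genes as a group. At an unadjusted p under 0.05, 1 was higher by limma (Rlbp1), 1 by edgeR and 0 by DESeq2. Stra6l, the liver's RBP4 receptor related to STRA6, fell from 4064 ± 251 to 3387 ± 143 (log2 change -0.26, limma adjusted p = 0.0103). With quantile normalization its change was -0.10 (adjusted p = 0.297).

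Oxidation of retinol was represented by Rdh16 and Rdh10, and both fell, by very different amounts. Rdh16 (chromosome 10, 127801152 to 127846565, plus strand) encodes a microsomal dehydrogenase of the short-chain family that acts on retinol and on hydroxysteroids. Its controls held 2600.0, 2903, 2552 and 2714. The dKO livers held 1033, 1046, 729.8 and 1054, all far below the controls, with dKO 3 the lowest. Rdh16 fell from 2692 ± 156 to 966 ± 157, to 35.9% of the control level (log2 change -1.49, SE 0.11, adjusted p = 8.38e-07 by limma). Of the 50-base words in its transcripts, 872 of 6239 also occur in transcripts of Rdh9, Rdh18-ps, Rdh16f1 or Rdh19, so part of its reads could be shared. Rdh18-ps, which lies inside Rdh16 on the same strand, stood at 12.3 ± 3.90 in controls and 7.84 ± 4.14 in dKO.

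Rdh10 (chromosome 1, 16105774 to 16133734, plus strand) encodes the retinol dehydrogenase known as essential for retinoic acid synthesis in the embryo. It held 653, 716, 634 and 618 across the controls, against 535, 597, 559 and 535 across the dKO livers. The groups did not overlap, with control 4 and dKO 2 nearest to each other. Rdh10 fell from 655 ± 43.1 to 557 ± 29.3, to 84.9% of the control level (log2 change -0.23, SE 0.08, adjusted p = 0.0355 by limma). The call was lost without control 1 (adjusted p = 0.0679), control 2 (0.103), dKO 1 (0.0667), dKO 3 (0.0570) or dKO 4 (0.0876), and it was 0.0738 without the variance trend. It held without control 3, control 4 or dKO 2.

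Reduction of retinal back to retinol was represented by Dhrs3, which fell. Dhrs3 (chromosome 4, 144892827 to 144928209, plus strand) encodes the retinal reductase that limits retinoic acid synthesis and works in a complex with RDH10. Its controls held 3060.0, 2651, 2837 and 2642. The dKO livers held 1921, 1527, 1404 and 1836, each below the lowest control. The mean fell from 2797 ± 197 to 1672 ± 246, to 59.8% of the control level (log2 change -0.75, SE 0.10, adjusted p = 9.28e-05 by limma).

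Rdh16 lies in a cluster of related dehydrogenases on chromosome 10, and its neighbours were examined after their values had been seen. Within 200 kb of its start, Rdh7, a hepatocyte dehydrogenase of the same family, fell from 25879.7 ± 1046 to 13084 ± 945 (log2 change -0.99, SE 0.08). Rdh16f2 fell from 2317 ± 110.2 to 1389 ± 278 (-0.76, SE 0.13). Sdr9c7, a short-chain dehydrogenase, fell from 950.0 ± 183 to 57.8 ± 5.75 (-4.01, SE 0.14). Rdh9, in contrast, was higher in dKO, at 311 ± 59.8 and 413 ± 31.5 (0.43, SE 0.13, limma adjusted p = 0.0194), although its groups overlapped. Hsd17b6 stood at 3927 ± 1202 and 3125 ± 902 (-0.32, limma adjusted p = 0.296). The members of the cluster thus did not all move in the same direction. Genes outside this family in the same window passed too. Zbtb39 fell (-0.47), while Stat6 (0.31) and Gpr182 (0.37) rose. Sequence shared among the neighbours themselves was not examined.

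**Figure D4:**
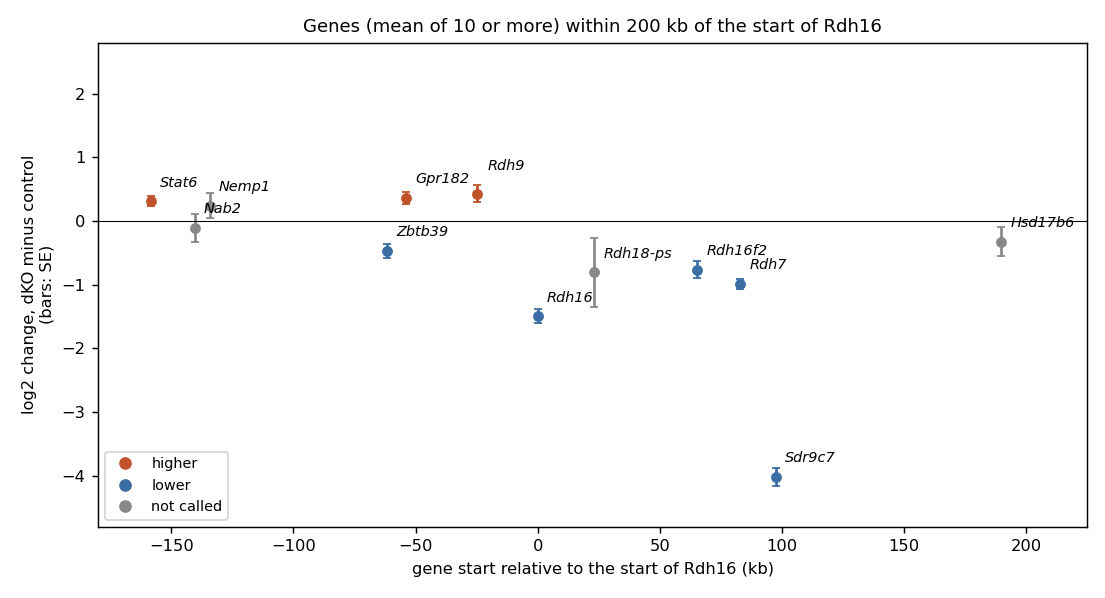
Log2 change, dKO minus control (bars: SE), of genes with a mean of 10 or more normalised read counts, against the distance in kb of the gene's start from that of Rdh16. Rdh16, Rdh16f2, Rdh7 and Sdr9c7 lie below 0, from -0.76 to -4.01, and Rdh9 lies above at 0.43. Of the other genes called, Zbtb39 lies below 0 at -0.47, and Stat6 and Gpr182 lie above at 0.31 and 0.37.

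Over the whole list of other retinol and retinal oxidoreductases, 17 were tested. Of these, 5 rose, 7 fell and 5 did neither, with a median change of -0.32. The share called was 70.6%, beside 38.2% of all genes tested. Retsat, which saturates retinol to dihydroretinol, had the largest log2 change in size of the 17 by limma. It held 10185, 9023, 6824 and 6380.5 in controls and 1034, 917, 838 and 879.9 in dKO, and fell from 8103 ± 1806 to 917 ± 84.2 (log2 change -3.12, SE 0.13, adjusted p = 1.38e-08 by limma). Adh7, an alcohol dehydrogenase with high activity on retinol, fell from 466 ± 74.2 to 138 ± 14.5 (-1.75). Hsd17b13, a lipid droplet protein with retinol dehydrogenase activity, rose from 4999.8 ± 410.4 to 10154 ± 629.7 (1.02, SE 0.08, limma adjusted p = 1.39e-06).

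For the step from retinal to retinoic acid and its removal, 7 other genes were tested, of which 2 rose (1 by DESeq2) and 3 fell (median change -0.53). By limma the share called was 71.4%, beside 38.2% of all genes tested. Aldh1a1, the abundant retinal dehydrogenase of liver, fell in every dKO liver below every control. It held 29944, 36659.5, 27553 and 32442 in controls and 7447, 9062, 5891 and 8198 in dKO (log2 change -2.06, SE 0.13, adjusted p = 2.22e-07 by limma). Aldh1a3, another retinal dehydrogenase, was scarce in controls, at 14.4, 13.3, 4.21 and 11.4. It held 81.5, 159.9, 155 and 98.7 in dKO (log2 change 3.52, SE 0.38, adjusted p = 1.5e-05 by limma). Per kb of exon, Aldh1a1 was still the more abundant of the pair in dKO livers, at 1549 ± 273 normalised read counts against 26.8 ± 8.58. Aldh1a7 fell from 4545 ± 226 to 2532 ± 545 (-0.87), and Aldh8a1, which oxidises 9-cis-retinal, fell from 6819.8 ± 335 to 4736 ± 533 (-0.53).

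Breakdown of retinoic acid was represented by 2 hydroxylases, of which Cyp26a1 rose and Cyp26b1 varied too much to tell. Cyp26a1 (chromosome 19, 37697798 to 37701536, plus strand) is the main retinoic acid hydroxylase of liver. It held 369, 259.6, 339.7 and 415 in the controls. The dKO livers held 461, 1072, 592 and 1075, so that dKO 1 lay just above the highest control and dKO 2 and 4 far above. The mean rose from 346 ± 65.3 to 800.1 ± 321, which is 2.31 times the control level (log2 change 1.13, SE 0.25, adjusted p = 0.00302 by limma). The coefficient of variation of Cyp26a1 was 18.9% among controls and 40.1% among dKO livers.

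Cyp26b1 (chromosome 6, 84571414 to 84593908, minus strand) is the related hydroxylase known from many tissues outside the liver. It held 294, 65.7, 14.7 and 256 across the controls, against 26.1, 54.5, 24.7 and 168 across the dKO livers. High and low livers occurred in both groups. The means were 158 ± 138 and 68.2 ± 67.6 (log2 change -0.90, SE 0.84, 95% interval -2.73 to 0.92, limma adjusted p = 0.435). The size of the change rested on single livers. It was -0.35 without control 1 (limma adjusted p = 0.795), -0.42 without control 4 (0.760) and -1.78 without control 3, the lowest liver (0.0593), and was not called in any of these. Control 3 was also the lowest liver for Acta2, smooth muscle actin, at 18.9 against 177 to 512 in the other 7. It had the smallest summed level of 11 portal fibroblast and mesothelial markers too, at 196 against 397 to 1076 in the other controls and 1244 to 1383 in dKO. Of these 11 markers 7 rose in dKO (4 by DESeq2), Cyp26b1 did not, and their part in its spread was not tested.

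Carotenoid cleavage went in opposite directions for its 2 enzymes. Bco1 (chromosome 8, 117095854 to 117133720, plus strand), which makes retinal from beta-carotene, rose. It held 53.4, 46.2, 86.2 and 90.3 across the controls, against 114, 103, 118 and 137 across the dKO livers. The lowest dKO liver lay above the highest control, and controls 1 and 2 were lower than controls 3 and 4. The mean rose from 69.0 ± 22.5 to 118 ± 14.3, which is 1.70 times the control level (log2 change 0.82, SE 0.22, adjusted p = 0.0117 by limma). With quantile normalization, which shifts the median of all genes by -0.11, the change was 0.51 and the adjusted p 0.0640. Gm20694 overlaps Bco1 on the same strand. Of the 50-base words in Bco1 transcripts, 36 of 2542 also occur in transcripts of other genes, so part of its reads could be shared. Bco1 is best known from intestinal epithelium. Of the intestinal markers, Lct was at 0 in 3 controls and 2 dKO livers, Rbp2 had reads in dKO 3 alone, and Vil1 was at 1.66 ± 2.00 and 8.59 ± 1.48. Apoa4, an apolipoprotein also made by hepatocytes, and Fabp2 made up most of the summed level of that list and moved in opposite directions, with log2 changes of 2.75 and -1.11.

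Bco2 (chromosome 9, 50533087 to 50555181, minus strand), the mitochondrial enzyme, fell about as far as Rdh16. It held 534, 515, 491 and 488 across the controls, against 178, 179, 161 and 174 across the dKO livers. The spread was small in both groups, with a coefficient of variation of 4.24% and 4.85%. The mean fell from 507 ± 21.5 to 173 ± 8.40, to 34.1% of the control level (log2 change -1.55, SE 0.09, adjusted p = 9.79e-08 by limma). Il18 overlaps Bco2 on the opposite strand, and the sources used here do not state whether reads were counted by strand. Il18 stood at 121 ± 10.3 and 84.9 ± 22.8 (-0.53, limma adjusted p = 0.0343).

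**Figure D5:**
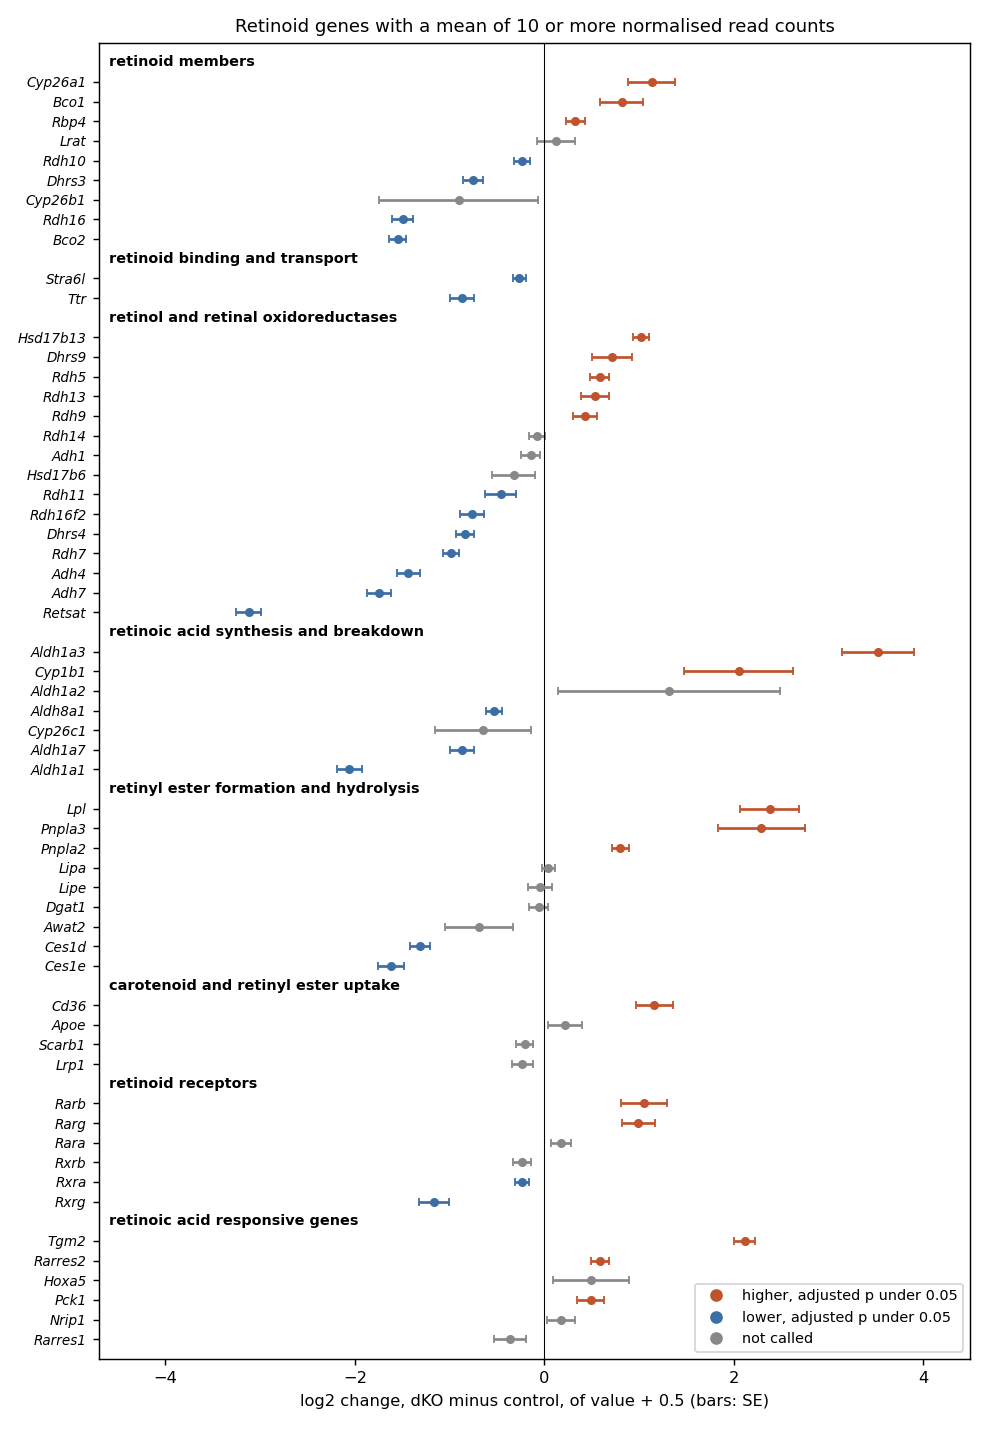
Log2 change, dKO minus control (bars: SE), of the 9 genes and of the other retinoid pathway genes with a mean of 10 or more normalised read counts, grouped by role and coloured by whether limma's adjusted p was under 0.05. Rises and falls occur within most groups, from Aldh1a3 at 3.52 to Retsat at -3.12.

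The wider pathway was listed by role as 64 further genes, of which 56 were tested. Of these, 16 rose, 16 fell and 24 did neither, with a median change of -0.07. The share called was 57.1%, beside 38.2% of all genes tested and a larger share of the more abundant genes. Retinyl ester formation and hydrolysis gave 3 higher and 2 lower of 9, a share of 55.6% beside the same background. Pnpla2, a triglyceride and retinyl ester lipase, rose from 1633 ± 128 to 2858 ± 294 (log2 change 0.80). Lpl, the lipoprotein lipase that frees retinol from chylomicron esters, rose from 742 ± 456 to 3582 ± 1137 (2.38), with control 4 at 1424 and the other controls at 485 to 567. The carboxylesterases Ces1d and Ces1e, which hydrolyse retinyl esters, fell from 11952 ± 791 to 4857 ± 819.7 (-1.31) and from 2608 ± 375 to 857 ± 195 (-1.62).

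Uptake of carotenoids and lipoprotein-borne esters gave 1 higher (2 by DESeq2) and 0 lower (1 without control 4) of 4 tested. By limma the share called was 25%, beside 38.2% of all genes tested. Cd36, a scavenger receptor, rose from 1489 ± 438 to 3214 ± 368 (log2 change 1.16). By limma 1 of the 4, Scarb1 (4557 ± 514 and 3944 ± 273), was lower at an unadjusted p under 0.05. By edgeR and DESeq2, 0 were lower after adjustment and 2 before it.

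Of the 6 retinoid receptors, 2 rose, 2 fell and 2 did neither, so that 66.7% were called, beside 38.2% of all genes tested. Rarb, itself a classical retinoic acid target, held 87.3, 58.5, 36.8 and 80.1 in controls and 124, 116, 139.7 and 141 in dKO. Every dKO liver was above every control (log2 change 1.05, SE 0.24, adjusted p = 0.00404 by limma). Rarg rose from 164 ± 38.4 to 323 ± 59.3 (0.99). Rxrg fell from 115 ± 10.3 to 51.3 ± 6.17 (-1.16). Rxra, the main RXR of hepatocytes, fell from 10503 ± 284 to 8945 ± 601 (-0.23, limma adjusted p = 0.0258), a call that was lost without the variance trend, with the mouse number as a block, without control 2, dKO 2 or dKO 4, and whose sign turned with quantile normalization (0.046).

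Genes known to respond to retinoic acid gave 4 higher and 0 lower of 10 tested, with a median change of 0.33 beside 0.03 over all genes. Cyp26a1, which rose (log2 change 1.13), and Dhrs3, which fell (-0.75), were counted earlier and left out of this list. The count of 0 lower therefore holds for the 10 listed genes alone. The share called, 40.0%, was near the 38.2% of all genes tested, and Rarb, already counted among the receptors, is 1 of the 4. By limma and by DESeq2, 0 of the 10 were lower at an unadjusted p under 0.05. By edgeR, 2 were, and 0 after adjustment. Tgm2, a transglutaminase, held 1827, 1441, 1519.9 and 1625 in controls and 5717, 8000.1, 6554 and 7659.9 in dKO (log2 change 2.12, SE 0.11, adjusted p = 5.07e-08 by limma). Rarres2, which encodes chemerin, rose from 3848 ± 389.6 to 5785 ± 562 (0.59). These 10 genes respond to other signals too. Retinoids themselves were not measured here.

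Set beside the changes, the AU-rich heptamers printed above were present in all 3 of the 9 genes that rose, in Lrat and Cyp26b1, which did neither, and in none of the 4 that fell. For Bco1 the longest annotated 3′ UTR lacked it, and a match in any annotated 3′ UTR counted for every gene. Among the 15424 tested genes with an annotated 3′ UTR, 30.1% held the heptamer. The share was 33.1% of those higher in dKO, 26.7% of those lower and 29.9% of the rest. Among the other retinoid pathway genes it was found in 7 of 16 that rose, 3 of 16 that fell and 6 of 24 that did neither. Aldh1a3, Lpl, Pnpla2, Cd36, Rarb and Rarg were among those that rose with it, and Stra6l, Adh7 and Ces1d among those that fell with it. With 9 genes these counts are a description, and no test was made of them.

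For each of the 9 genes, the 2 genes with the most similar profile over the 8 livers were found by the root mean square difference of centred log2 values. For Rbp4 they were Slc35f6 (0.036) and Spint2 (0.039), for Rdh10 Cand1 (0.023) and Lypla1 (0.034), and for Dhrs3 Dmac2 (0.067) and Etfb (0.085). Bco2 was nearest to Fpgs (0.089) and Axin2 (0.090), and Rdh16 to Slc22a7 (0.12) and Zfp667 (0.13). Bco1 was nearest to Clstn1 (0.15) and Ift43 (0.16), Lrat to Dclk2 (0.17) and Tma16 (0.17), and Cyp26a1 to Ebi3 (0.19) and Ercc6l (0.20). For Cyp26b1 the nearest, Pgm5 and Tnnt2, were still 0.93 and 0.95 away. These 2 were likewise lowest in control 3, at 3.16 and 5.26. With 8 livers in 2 groups, much of any such likeness is the group difference itself.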

How the data were processed

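The authors deposited 1 table for all 8 livers, named for FPKM. The deposited values are instead a signal made of read counts that were scaled by 1 factor per library and not by gene length. Dividing each column by its smallest step gave whole numbers (100% within 0.001). For dKO 1 the step lies too near 1 for an automatic check. Build mm10, HISAT2 2.0.5, fastp, DESeq2 and featureCounts 1.5.0-p3 are named per the submitters' processing notes. Strand setting and annotation are not given in the sources read.

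From the values, log2(value + 0.5) was computed for genes with a mean of 0.5 or more, and groups were compared with limma 3.58.1 (lmFit, eBayes with trend, R 4.3.3) over all 20055 such genes, with Benjamini-Hochberg adjustment. The planned log-scale test had assumed FPKM and was used unchanged. Single values were compared with an exact permutation test. Alternatives used edgeR 4.0.16 and DESeq2 1.42.0 on whole reads. The limma script was tested on simulated data. Levels per kb divide by the union of GENCODE M21 exons. Of 22052 identifiers, 21796 matched a symbol. All table columns were matched to samples, and 0 were left over.

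The retinoid genes, gene lists, markers and tests were chosen with earlier results of these data known. Named genes are the 9 retinoid genes, the targeted genes, up to 4 called genes per pathway list with the smallest adjusted p, the 3 most abundant markers per cell list (6 for stellate cells) and the nearest 2 profiles of each retinoid gene. Acta2, Scarb1, Lct, Rbp2 and the neighbours of Rdh16 were named after their values were seen. A few genes of the pathway lists are not reported here and are left out of the lists' counts and medians. Floors cover counting error only. A few other markers served as checks: endothelial (4 of 10 higher, 2 lower), Kupffer cell (5 of 8 higher, 0 lower, and 1 lower at an unadjusted p under 0.05), portal fibroblast and mesothelial (7 of 11 higher, 0 lower; 6 by edgeR and 4 by DESeq2), intestinal (2 of 4 tested higher, 1 lower), pancreatic acinar (1 of 6 in the table, 0 tested) and adipocyte markers (2 of 5 in the table, 1 tested, 0 called).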

Additional observations from a re-analysis of the deposited data

Results flagged for a closer look

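In groups of 4 livers, a gene's highest or lowest liver was singled out where its gap to the next liver as a share of the group's range was above Dixon's 95% critical value. Of 172 groups, from 84 named genes and from Lrat minus stellate markers and Rbp4 minus Ttr, 17 met this. Chance gives about 1 in 20 for independent normal values. That rate is no yardstick here, because the genes are not independent and their values were not log-transformed. A group with reads in 1 liver alone always meets the rule. Among the 9 retinoid genes it was met by Rdh16, with dKO 3 at 729.8 below the other dKO livers at 1033 to 1054.

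Control 4 accounted for 7 of the 17. It was the highest control for Lpl (1424), Col3a1 (4838), Col1a1 (1799), Col1a2 (2097), Lyz2 (4457), Spp1 (1247) and Ebi3 (11.4). The lowest dKO liver was dKO 1 for Col3a1 (9322) and Col1a1 (4766), and dKO 3 for Slc35f6 (375).

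Of the targeted genes, Zfp36l1 was highest among dKO livers in dKO 4 (267) and Zfp36l2 lowest among controls in control 3 (997). Pgm5 was lowest among controls in control 3 (3.16). Markers with few reads stood out for Cela3b in dKO 3 (3.41), Cfd in dKO 1 (3.02) and Adipoq in control 1 (3.08), each from a few reads in 1 liver.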

How the results depend on the processing

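Alternatives were other pseudocounts (1 and 0.1), no filter or a mean of 10 or more, quantile or TMM scaling, eBayes without trend or robust, edgeR, DESeq2, the mouse number as a block, and each liver left out. Cyp26a1, Dhrs3, Rdh16 and Bco2 kept their call under all of them. The labels do not say that mouse numbers pair livers across the groups. Correlations of same-numbered deviations were 0.03, -0.07, 0.04 and 0.08, with the best match in 2 of 4. With 4 numbers these values cannot exclude a pairing, and the replicate block is given as 1 setting among others. Under it, Rbp4 had a log2 change of 0.33 (limma adjusted p = 0.0700). Rbp4 minus Ttr was 1.20 (exact permutation p = 0.125, the smallest 4 pairs allow), and 4021 genes were higher and 3112 lower. Without trend, Rdh10 was at -0.23 (adjusted p = 0.0738). With quantile scaling Bco1 was at 0.51 (0.0640), Rxra at 0.046, Clec4f at 0.023, Dclk2 at -0.43 and Tma16 at -0.050, and 3638 genes were higher and 4312 lower, against 4244 and 3410. Dclk2 also turned with TMM (-0.0083), edgeR (-0.023) and DESeq2 (-0.0078).

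With livers left out, the log2 change of Lrat ranged from -0.091 to 0.26, Cyp26b1 from -1.78 to -0.35, Rbp4 from 0.30 to 0.38, Rdh10 from -0.27 to -0.19 and Lrat against stellate markers from -0.18 to 0.024. Among other named genes whose sign turned without a liver, Dclk2 ranged from -0.11 to 0.11, Clec4f from -0.19 to 0.051 and Cfd from -0.99 to 0.17. The causes were not tested. Differences within the interval of Lrat or Cyp26b1 were not detectable with 4 livers per group, and Bco1 rests on 258 reads over the controls.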
